A study of Homo sapiens with 18 samples.

Results

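H1 human embryonic stem cells (hESCs) carrying a frameshift in USB1 were compared with WT H1 hESCs before any differentiation, on the day named D0. The 6 libraries of D0, 3 WT and 3 USB1 mutant, were chosen by their labels from the 18 libraries of the series, and genes were described across the whole table rather than from a preset outcome. The other 12 libraries hold the same genotypes, 3 libraries each, on D16 and D30 of hematopoietic differentiation. H1 is an established embryonic stem cell line. The mutant cells carry a deletion of an A in the coding sequence, c.531_delA, made with CRISPR/Cas9 and a donor oligo. Edited cells were seeded sparsely and colonies were picked by hand, so the mutant may be a single clone, and any other difference that arose in picking or culture cannot be told apart from the mutation. WT and mutant hESCs share the parental line and the undifferentiated state, and nothing in the labels says whether the 3 libraries of a genotype came from separate cultures. The p-values given here therefore measure the spread between these libraries, which may be technical.

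USB1 is a 3'-5' exoribonuclease that trims the U-tract at the end of U6 small nuclear RNA and removes oligo-A tails from small RNAs and some microRNAs. Its loss causes poikiloderma with neutropenia, a bone marrow failure syndrome. Undifferentiated hESCs of the usual kind are called primed: they depend on FGF and Activin/Nodal signals, keep a core network of POU5F1, SOX2 and NANOG, and respond to BMP and Wnt signals by leaving pluripotency, with the primitive streak and definitive endoderm as early destinations.

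The USB1 edit lies in exon 5 of the 7 exons of the gene on chromosome 16 (GRCh38), within the coding sequence. The study's methods list a pair of sequences, each with an NGG motif, as donor oligos. Because each matches the genome next to such a motif, they are read here as the Cas9 target sites, which overlap with a shift of 1 base on the plus strand, at chr16:58017341-58017363 and chr16:58017342-58017364. They are shown because they define the genotype, with the protospacer in lower case and the adjacent NGG motif that Cas9 needs in capitals.

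USB1 target 1: attgggcttgaggtcacttcAGG
USB1 target 2: ttgggcttgaggtcacttcaGGG

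The mutation is not visible as a loss of USB1 RNA. USB1 stood at 79.3, 86.3 and 93.3 CPM (counts scaled to a common library size) in WT and at 91.2, 93.4 and 94.7 CPM in mutant hESCs, with overlapping ranges and a log2 fold change of 0.11 ± 0.09 (SE, adjusted p = 0.623). A gene-level count does not see a deletion of 1 base, so this value checks neither genotype label.

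Library totals ran from 8901471 to 13699016 counts, and 14719 of the 35168 genes had enough counts to be tested. With a call defined as a Benjamini-Hochberg adjusted p under 0.1 in edgeR's quasi-likelihood test, 432 genes (2.93%) differed between the genotypes: 157 were higher in the mutant (1.07% of those tested) and 275 were lower (1.87%). More genes fell than rose by over 2-fold, 149 (1.01%) against 48 (0.326%). The biological coefficient of variation was 0.13, and the median log2 fold change over all genes was 0.00. Libraries with the same replicate number deviated together, and a fit with the replicate number as a block called 889 genes higher (6.04%) and 829 lower (5.63%). Without both replicates 1, 596 were higher and 654 lower, and without mutant replicate 3 or WT replicate 2 the calls fell to 116 and 140. Of the 108 called genes among those picked for naming, 47 kept their call whichever library was left out, 53 lost it in a fit over all 18 libraries and 40 in edgeR with the deposited transcript lengths.

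Calls were unevenly spread over the chromosomes. On the long arm of chromosome 1, 52 of 662 genes tested were lower (7.85%) and 4 were higher, with a median log2 fold change of -0.19. On chromosome 19, 35 of 1066 genes were higher (3.28%) and 2 were lower, with a median of 0.14. On the short arm of chromosome 1, by comparison, 6 of 821 genes were called in each direction (0.731%). The study karyotyped WT and mutant hESCs by chromosome banding and reported a normal karyotype for the mutant. Whether the cells sequenced were those karyotyped is not stated. The part of a regional difference in DNA content or expression in the results below was not tested, and genes of the long arm of chromosome 1 are marked as such where they are named. Leaving those genes out before scaling cost 4 of the other 100 named genes their call.

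**Figure D1:**
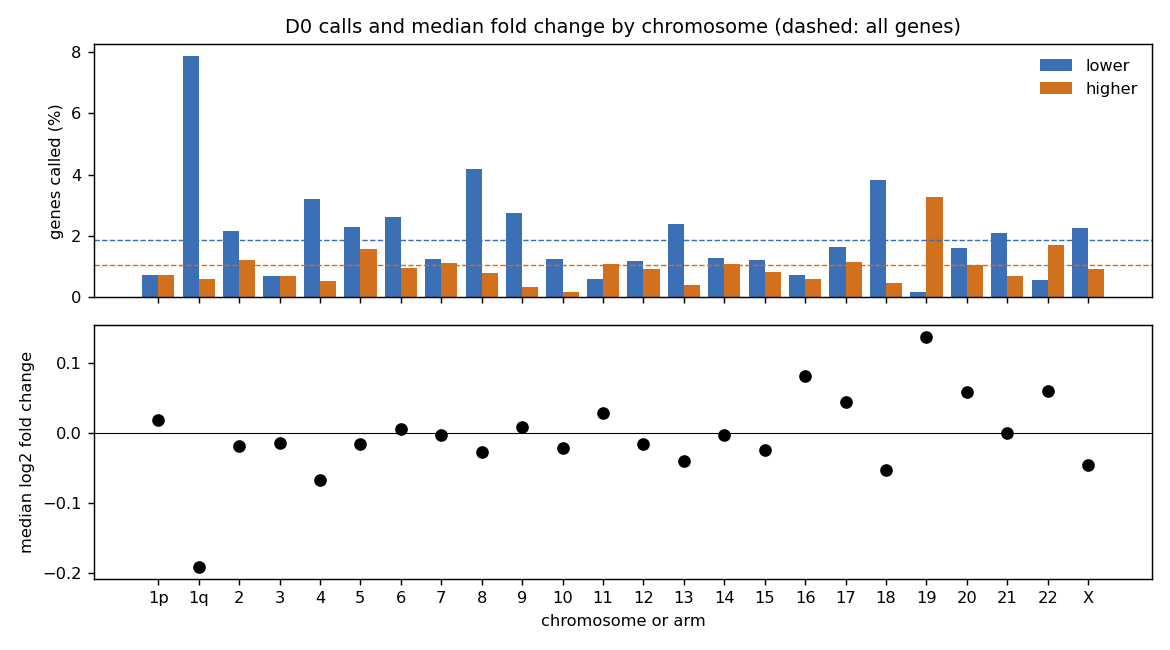
Share of tested genes called at D0 in each direction (top, percent, dashed lines for all genes) and median log2 fold change of USB1 mutant over WT (bottom) for each chromosome, with chromosome 1 split into its arms. The long arm of chromosome 1 has the lowest median, -0.19, and 7.85% of its genes called lower, while chromosome 19 has the highest median, 0.14.

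Signalling genes were lower more often than higher in the mutant. In the Wnt list, 9 of 58 tested members fell (15.5%, against 1.87% of all genes) and none rose, with a median log2 fold change of -0.24. In the BMP list, 6 of 33 fell (18.2%) and none rose, with a median of -0.20. The Nodal, Activin and TGF-beta list had 3 of 35 lower (8.57%), the FGF list 3 of 32 (9.38%) and the EGF and ERBB list 3 of 14 (21.4%). None of them had a member called higher. The medians of these 3 lists were -0.05, -0.06 and -0.17. For these and all later lists, the shares of all genes to set them against were 1.87% lower and 1.07% higher. Without WT replicate 2 the Wnt, BMP and Nodal counts were 2, 2 and 1, and without mutant replicate 3 they were 4, 2 and 1. The BMP count was also 3 without mutant replicate 2, and the Nodal count 1 without WT replicate 3.

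**Figure D2:**
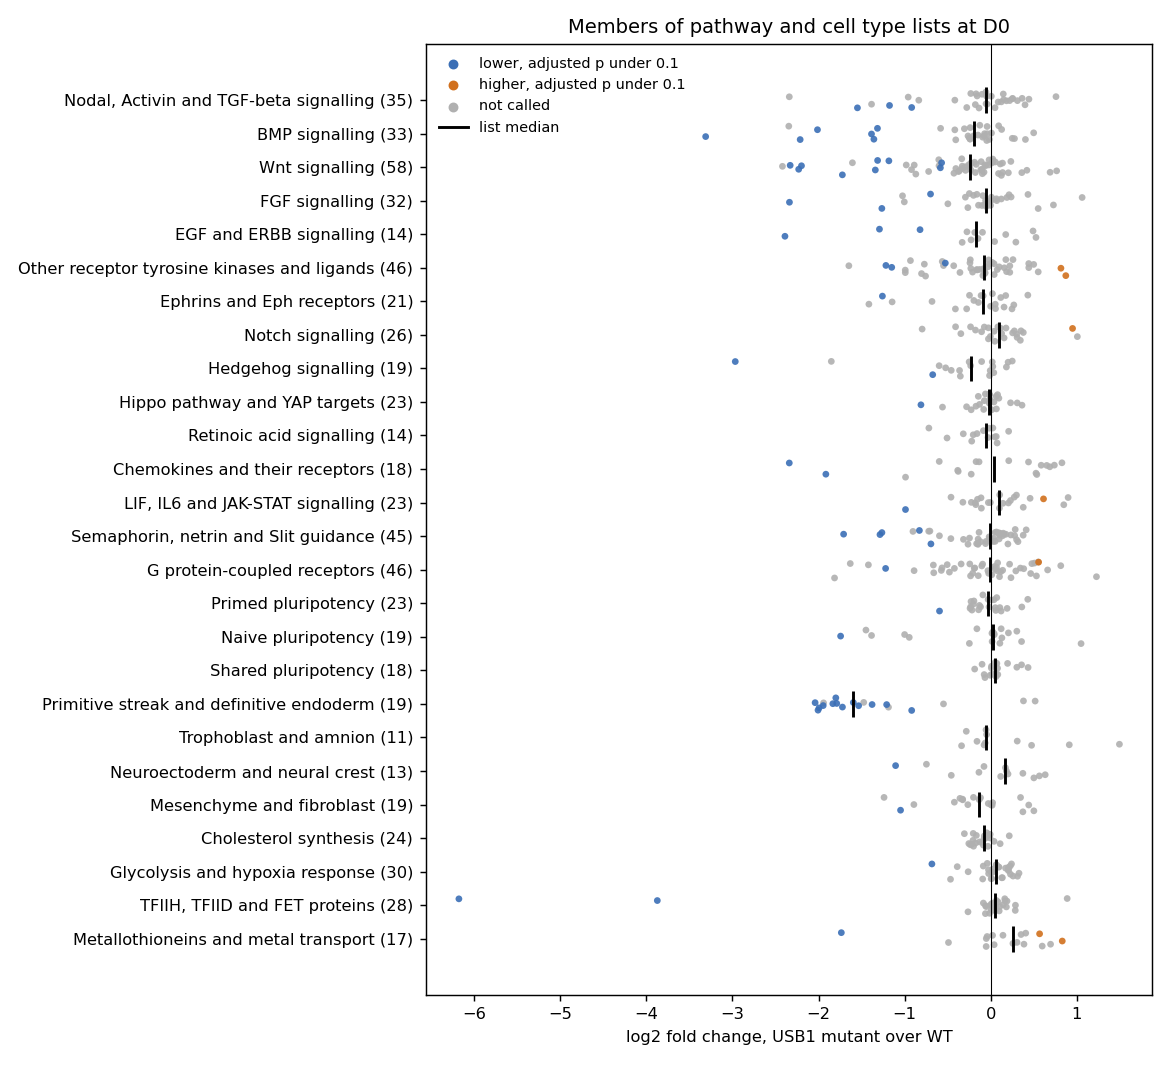
Log2 fold change of USB1 mutant over WT at D0 for each tested member of 26 pathway and cell type lists (tested members in parentheses), with called members coloured and the list median as a black bar. Called members of the Wnt, BMP, Nodal, FGF and ERBB lists all lie left of 0, and the primitive streak and definitive endoderm list has the lowest median, -1.60.

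Among Wnt genes the largest called fall was in LGR5, the R-spondin receptor that amplifies Wnt signals and marks many stem cell populations. LGR5 stood at 15.5, 12.8 and 11.6 CPM in WT and at 1.30, 3.28 and 3.28 CPM in mutant hESCs, 5.03-fold lower (log2 fold change -2.33 ± 0.29, adjusted p = 0.00636, and 0.161 in edgeR with the deposited transcript lengths). APCDD1, a membrane-bound Wnt inhibitor, fell from 12.1, 11.9 and 11.1 CPM to 2.70, 3.97 and 3.91 CPM (log2 fold change -1.72 ± 0.19, adjusted p = 0.00396). The lowest WT library was above the highest mutant library by a wide margin for both genes. The secreted frizzled-related antagonists FRZB and SFRP1 also fell, FRZB by 1.34 ± 0.23 and SFRP1 by 0.58 ± 0.10 on the log2 scale, as did the receptor FZD4, by 0.57 ± 0.10. The remaining calls, named after their values were seen, were RSPO3 (-2.23), a ligand of LGR5, the antagonist DKK1 (-2.20), the feedback inhibitor NKD1 (-1.31) and WLS (-1.18), which carries Wnt proteins to the cell surface. The called members thus included receptors, antagonists and the LGR5 ligand RSPO3, but no Wnt protein. The feedback target AXIN2 overlapped between genotypes, at 101, 89.5 and 81.7 CPM in WT against 51.6, 93.7 and 76.2 CPM in the mutant (adjusted p = 0.508). SP5, a direct Wnt target, stood at 30.0, 17.9 and 17.2 CPM against 1.8, 13.7 and 6.01 CPM (adjusted p = 0.181, and 0.0922 with the replicate block), and WNT3 was at 6.22, 5.24 and 15.02 CPM against 0, 5.06 and 0 CPM (adjusted p = 0.298). Mutant replicate 2 carried the highest mutant value of all 3 of these genes. With the replicate block, 16 Wnt members were lower and 1 was higher. The calls of FRZB and FZD4 were lost without WT replicate 2 or mutant replicate 3 and that of SFRP1 without WT replicate 2, with adjusted p between 0.104 and 0.156.

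BMP ligands and BMP antagonists fell side by side. BMP2, a ligand, stood at 53.1, 67.6 and 67.9 CPM in WT and at 16.9, 28.0 and 27.1 CPM in the mutant, 2.61-fold lower (log2 fold change -1.38 ± 0.19, adjusted p = 0.00884). The secreted BMP modulator BMPER fell from 9.45, 7.89 and 7.23 CPM to 2.60, 3.28 and 3.67 CPM (adjusted p = 0.0147, and 0.188 with transcript lengths), again with no overlap. The ligand GDF7 (-3.31), the BMP-responsive homeobox gene MSX1 (-2.21) and the antagonist NOG (-2.01) were among the other calls, NOG being named after its value was seen. GDF7 and NOG were near the lower limit of detection in the mutant, with GDF7 at 0.2, 0.199 and 0 CPM. BMP4 moved the other way without a call, from 51.2, 48.7 and 56.7 CPM to 94.9, 60.8 and 65.5 CPM (log2 fold change 0.50 ± 0.16, adjusted p = 0.197). It was called with the replicate block (adjusted p = 0.0635). The BMP target ID1 stood at 130, 112 and 100 CPM against 127, 140 and 147 CPM (adjusted p = 0.29), with overlapping ranges. With a library left out, GDF7 and MSX1 lost their calls in 2 and 5 of the 6 fits, with adjusted p up to 0.279.

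**Figure D3:**
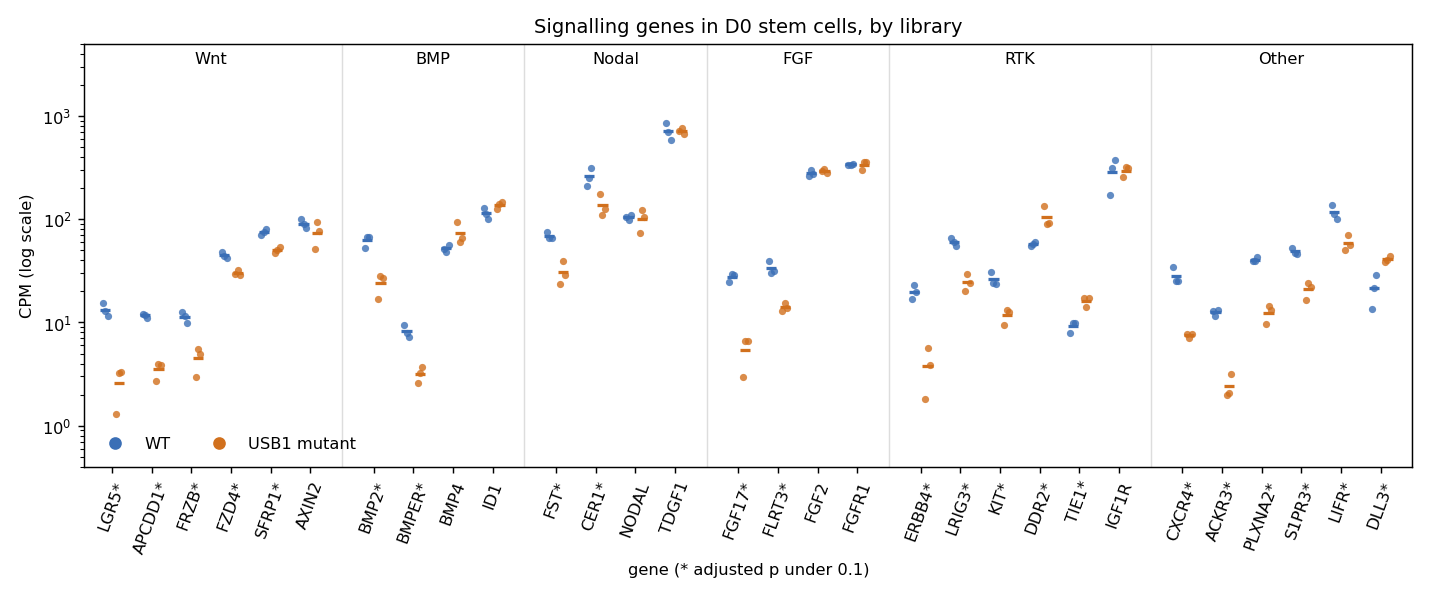
CPM in each D0 library (points, log axis) and group mean (bars) for 30 signalling genes, WT in blue and USB1 mutant in orange, with called genes starred. LGR5, ERBB4, FGF17 and ACKR3 lie near 5-fold below WT in the mutant, while NODAL, TDGF1, FGF2, FGFR1, AXIN2 and IGF1R overlap between genotypes.

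Nodal signalling genes did not move as a block. Of the pathway's own ligand and co-receptor, NODAL stood at 105, 99.3 and 109 CPM in WT against 74.3, 122 and 106 CPM in the mutant (adjusted p = 0.927), and TDGF1 at 854, 707 and 592 CPM against 717, 772 and 675 CPM (adjusted p = 0.989). The 3 lower members were all secreted. FST, which binds and blocks Activin, fell from 74.9, 66.3 and 66.2 CPM to 23.8, 39.4 and 28.7 CPM (log2 fold change -1.18 ± 0.17, adjusted p = 0.0112). CER1, a Nodal and BMP antagonist of the anterior endoderm, fell from 209, 253 and 317 CPM to 175, 111 and 127 CPM (adjusted p = 0.053), and TGFB2, on the long arm of chromosome 1, by 1.55 ± 0.35 on the log2 scale (adjusted p = 0.0755). The Nodal antagonist LEFTY1, on the same arm, was at 84.1, 152 and 212 CPM in WT against 271, 224 and 261 CPM in the mutant. Its genotypes did not overlap, and its call was reached only in some fits (adjusted p = 0.223, and 0.068 with the replicate block). LEFTY2, also on that arm, stood at 217, 346 and 483 CPM against 544, 400 and 478 CPM (adjusted p = 0.444). With the block, 4 members of the list were higher and 5 lower. CER1 and TGFB2 each lost their call in 4 of the 6 fits with a library left out, with adjusted p between 0.117 and 0.306.

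In the FGF list, the ligand FGF17 showed the largest fall, from 24.5, 29.5 and 28.7 CPM to 3.00, 6.55 and 6.64 CPM, 5.05-fold (log2 fold change -2.34 ± 0.24, adjusted p = 0.00327). FLRT3, a membrane partner of FGF receptors, fell from 39.9, 30.1 and 31.4 CPM to 12.9, 15.5 and 13.8 CPM (log2 fold change -1.26 ± 0.14, adjusted p = 0.00445). Neither gene overlapped between genotypes or lost its call in any fit. DUSP4, a phosphatase that ends MAP kinase signals, fell by 0.70 ± 0.14 on the log2 scale (adjusted p = 0.0408), a call lost without WT replicate 2 (adjusted p = 0.188) or mutant replicate 3 (adjusted p = 0.129). FGF8, the close relative of FGF17, was at 3.15, 3.95 and 5.08 CPM against 0.699, 3.18 and 2.03 CPM (adjusted p = 0.299). The ligand that the culture supplies, FGF2, and its receptor FGFR1 overlapped between genotypes, with log2 fold changes of 0.07 ± 0.09 and 0.00 ± 0.10. With the replicate block 4 members were higher and 4 lower.

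Receptor tyrosine kinases moved in both directions. ERBB4, a neuregulin receptor, was at 16.7, 23.1 and 19.9 CPM in WT and at 1.8, 5.66 and 3.91 CPM in the mutant, 5.24-fold lower (log2 fold change -2.39 ± 0.31, adjusted p = 0.00717). Its partner ERBB3 stood at 90.3, 82.9 and 81.7 CPM against 100, 105 and 107 CPM. That difference was not called (log2 fold change 0.29 ± 0.09, adjusted p = 0.151), although it was with the block (adjusted p = 0.0503). LRIG3 (-1.29 ± 0.14), a membrane protein that modulates ERBB receptors, and the ligand EGF (-0.82 ± 0.15) were lower as well. KIT, the stem cell factor receptor of blood progenitors and germ cells, fell from 30.8, 24.0 and 23.7 CPM to 9.39, 13.3 and 12.7 CPM (log2 fold change -1.15 ± 0.17, adjusted p = 0.0125). Neither KIT nor EGF was called when the deposited transcript lengths entered the fit (adjusted p = 0.366 and 0.473 in edgeR, 0.309 and 0.492 in DESeq2). The collagen receptor DDR2, on the long arm of chromosome 1, rose from 55.4, 57.7 and 59.9 CPM to 136, 89.1 and 92.2 CPM (log2 fold change 0.87 ± 0.16, adjusted p = 0.0288), and the endothelial receptor TIE1 rose by 0.82 ± 0.15 on the log2 scale. IGFBP5 (-1.22), which binds IGF ligands, and the TAM receptor MERTK (-0.53, called in no fit with a library left out) were the other falls in a list of 46 with 2 higher and 3 lower (4 and 5 with the block), while IGF1R overlapped between genotypes (adjusted p = 0.964). DDR2 lost its call without WT replicate 2 (adjusted p = 0.149) and TIE1, EGF and IGFBP5 without that library or mutant replicate 3 (0.106 to 0.195). The 3 falls of the list of 46 (6.52%) became 1 when WT replicate 2 or mutant replicate 3 was left out. Its 2 rises (4.35%) became 0 without WT replicate 2 and 1 without mutant replicate 3.

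Chemokine receptors fell without their shared ligand. CXCR4 stood at 34.7, 25.0 and 25.5 CPM in WT and at 7.69, 7.05 and 7.81 CPM in the mutant, 3.77-fold lower (log2 fold change -1.91 ± 0.16, adjusted p = 0.00102). ACKR3, the scavenging receptor for the same ligand, fell from 12.8, 11.6 and 13.2 CPM to 2.00, 2.08 and 3.20 CPM, 5.06-fold (log2 fold change -2.34 ± 0.21, adjusted p = 0.00148). Both kept their calls in every fit. CXCL12, the ligand, overlapped, at 22.96, 14.4 and 14.9 CPM against 8.09, 16.4 and 15.5 CPM (adjusted p = 0.563). No other of the 18 tested members was called (11.1% lower), and the median of the list was 0.04. CXCR4 is also a surface marker of definitive endoderm, whose genes fell in the same libraries, as given below.

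Guidance receptors and ligands gave 5 calls of 45 tested (11.1%, against 1.87% of all genes), all lower, with a list median of -0.01. PLXNA2, a semaphorin receptor on the long arm of chromosome 1, fell from 39.3, 39.2 and 43.5 CPM to 9.69, 14.3 and 13.2 CPM, 3.27-fold (log2 fold change -1.71 ± 0.15, adjusted p = 0.0011). The semaphorins SEMA5A (-1.29 ± 0.16) and SEMA6D (-1.26 ± 0.14), the netrin NTN1 (-0.83 ± 0.15) and SLIT2 (-0.69 ± 0.13), a ligand of Robo receptors, were the others. EPHA4 was the sole call among 21 ephrins and Eph receptors (4.76%), at -1.26 ± 0.24 (adjusted p = 0.0386). With the replicate block, 8 guidance genes were lower and 2 higher, and 3 of the Eph list were lower. SEMA6D was not called in edgeR with transcript lengths (adjusted p = 0.355), and NTN1, SLIT2 and EPHA4 lost their calls without WT replicate 2 or mutant replicate 3 (0.104 to 0.198). The guidance count was 3 when the one or the other was left out.

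Hedgehog, Notch, Hippo and cytokine genes gave few calls. The shares lower were 10.5% of Hedgehog, 4.35% of Hippo and 4.35% of cytokine genes. Higher were 3.85% of Notch and 4.35% of cytokine genes. Of the G protein-coupled receptors named below, 2.17% fell and 2.17% rose, near the shares of all genes. SHH, the Hedgehog ligand, stood at 4.23, 4.16 and 6.32 CPM in WT and at 0.1, 1.29 and 0.469 CPM in the mutant (log2 fold change -2.97 ± 0.52, adjusted p = 0.0253, and 0.154 without mutant replicate 3). The pathway targets PTCH1 and GLI1 overlapped between genotypes (adjusted p = 0.988 and 0.666), and GPR161, a negative regulator of the pathway on the long arm of chromosome 1, fell by 0.67 ± 0.14 on the log2 scale. DLL3, a Notch ligand that acts inside the cell, rose from 13.6, 21.7 and 29.0 CPM to 38.5, 40.5 and 44.1 CPM (adjusted p = 0.0828), the single call among 26 Notch genes, while NOTCH1 and HES1 were not called (0.985 and 0.404). The YAP target ANKRD1 fell by 0.81 ± 0.18 on the log2 scale, alone among 23 Hippo genes. Of the LIF pair, the receptor LIFR fell from 138, 113 and 99.7 CPM to 50.9, 70.5 and 55.8 CPM (log2 fold change -0.99 ± 0.15, adjusted p = 0.0149), and the ligand LIF stood at 8.46, 10.05 and 10.6 CPM in WT against 13.8, 14.6 and 16.0 CPM in the mutant (log2 fold change 0.61 ± 0.14, adjusted p = 0.0828). The fall of LIFR was not called with transcript lengths (adjusted p = 0.354 in edgeR) or without mutant replicate 3 (adjusted p = 0.106), and the call of LIF was lost whichever library was left out, with adjusted p up to 0.367. Among 46 G protein-coupled receptors, the sphingosine 1-phosphate receptor S1PR3 fell from 53.2, 46.9 and 46.4 CPM to 16.6, 24.2 and 22.03 CPM in every fit (adjusted p = 0.00505), and the cannabinoid receptor CNR1 rose by 0.56 ± 0.11 on the log2 scale. No retinoic acid gene of 14 was called by edgeR, where 2 were lower at an unadjusted p under 0.05, and DESeq2 called 1 lower. The smallest p was that of CRABP2, on the long arm of chromosome 1 (adjusted p = 0.146, and 0.0365 with the block). DLL3, GPR161, ANKRD1 and CNR1 each lost their call in 3 or 4 of the 6 fits with a library left out (adjusted p up to 0.318), and GPR161 was not called with transcript lengths (adjusted p = 0.765 in edgeR and 0.858 in DESeq2). With the replicate block, 4 Hedgehog genes were lower, 2 Notch genes were higher and 1 lower, and 4 cytokine genes were higher and 3 lower.

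Primed-state genes gave 1 call in 23 tested (4.35%), with a median log2 fold change of -0.03. OTX2, a transcription factor of the primed state and of anterior fates, fell from 69.9, 65.0 and 65.5 CPM to 39.0, 48.1 and 45.5 CPM (log2 fold change -0.59 ± 0.10, adjusted p = 0.0247), without overlap. The call was lost without WT replicate 2 (adjusted p = 0.114), without mutant replicate 3 (adjusted p = 0.122) and in edgeR with transcript lengths (adjusted p = 0.102). ZIC2 stood at 42.8, 50.7 and 47.5 CPM against 32.2, 48.0 and 39.1 CPM, with overlapping ranges (adjusted p = 0.49). The de novo methyltransferase DNMT3B overlapped too, with a log2 fold change of 0.06 ± 0.13. Of 19 tested naive-state genes, DPPA3 was the single call, at 3.48, 1.58 and 1.69 CPM against 0.499, 0.794 and 0.703 CPM (adjusted p = 0.0949), and it lost that call whichever library was left out. With the replicate block, 1 primed-state gene was higher and 3 lower, and 2 naive-state genes each way.

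None of the 18 shared pluripotency genes was called by edgeR at D0, 2 were higher at an unadjusted p under 0.05, and DESeq2 called 1 higher. The list's median was 0.06. The nearest to a call were NANOG, at 304, 263 and 257 CPM in WT against 349, 359 and 349 CPM in the mutant (log2 fold change 0.36 ± 0.09, adjusted p = 0.107), and PRDM14, at 92.3, 97.2 and 97.9 CPM against 111, 123 and 120 CPM (adjusted p = 0.136). Neither overlapped between genotypes, which held for 21.3% of all genes tested. Both were called higher with the replicate block (0.0286 and 0.0298), NANOG in DESeq2 as well (0.0364). POU5F1 stood at 770, 720 and 790 CPM against 837, 832 and 942 CPM (adjusted p = 0.353) and SOX2 overlapped (adjusted p = 0.801). The defining markers of hESCs were thus present in all 6 libraries.

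Markers of early endoderm and mesoderm were lower in the mutant. Of 19 tested members, 13 fell (68.4%, against 1.87% of all genes) and none rose, with a median log2 fold change of -1.60. The 13 falls became 3 without mutant replicate 3 and 5 without WT replicate 2. Their summed level was 577 to 623 CPM in WT and 304 to 320 CPM in the mutant, and the TTR and MESP1 genes had too few counts to be tested. GATA6 went from 35.8, 34.2 and 33.4 CPM to 7.09, 12.5 and 10.1 CPM, EOMES from 46.2, 34.2 and 34.3 CPM to 3.99, 14.1 and 10.6 CPM, and MIXL1, on the long arm of chromosome 1, from 17.4, 13.3 and 14.6 CPM to 3.10, 5.66 and 6.09 CPM. In bulk RNA, fewer cells of a type and less RNA per cell cannot be told apart, and this holds for each fall given above in a gene that such cells use, among them CXCR4, CER1, FGF17, BMP2 and SHH. Their part in those falls was not tested. The other cell types gave few calls, with 7.69% of neural and 5.26% of mesenchymal genes lower. Summed levels were 1391 to 2012 CPM in WT against 1619 to 1882 CPM in the mutant for neural genes, 3047 to 3643 against 2205 to 2636 CPM for mesenchymal genes, and 248 to 262 against 279 to 287 CPM for trophoblast and amnion genes, with SOX1 and CDX2 too low to be tested. SOX21 was the sole call of 13 neural genes (-1.10 ± 0.20, lost without WT replicate 2 or mutant replicate 3) and FN1, at 1446, 1491 and 1465 CPM in WT against 447, 926 and 757 CPM in the mutant, the sole call of 19 mesenchymal genes (adjusted p = 0.053). No trophoblast or amnion gene of 11 was called by edgeR, 3 were higher at an unadjusted p under 0.05, and DESeq2 called 2 higher. TEAD4 (0.31 ± 0.09, adjusted p = 0.156) was called with the block (0.0298). Calls on GATA6, MIXL1 and GSC held whichever library was left out, whereas EOMES, GATA4 and SOX17 lost theirs without mutant replicate 3 (0.104 to 0.16), SOX17 also without WT replicate 2 (0.161).

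Extracellular matrix and adhesion genes changed at single members rather than as families. The laminin chains LAMB1 and LAMA1 fell by 0.51 ± 0.08 and 0.81 ± 0.19 on the log2 scale, 2 of 12 tested (16.7%). The fibronectin receptor chain ITGA5 fell by 0.53 ± 0.11, 1 of 16 integrins (6.25%). COL9A2 (-1.06) and COL4A6 (-0.63) were lower and COL8A2 (0.92) higher among 37 collagen chains (5.41% lower and 2.7% higher). ADAMTS9, a protease that cleaves proteoglycans, fell from 35.2, 33.0 and 31.8 CPM to 8.19, 10.5 and 7.89 CPM (log2 fold change -1.92 ± 0.14, adjusted p = 0.000489), with no overlap and a call in every fit. CDH11 (-0.73) among 13 cadherins (7.69%) and KRT19 (-0.41) among 8 keratins (12.5%) were each the only call. No claudin of 11 was called by edgeR, with 2 higher and 1 lower at an unadjusted p under 0.05 and 1 called higher by DESeq2. The calls of LAMA1, ITGA5, COL9A2, CDH11 and KRT19 were lost in 4 or 5 of the 6 fits with a library left out (adjusted p up to 0.276), and those of FN1, COL4A6 and COL8A2 in 3 to 5 (up to 0.399). LAMB1 lost its call without mutant replicate 3 (adjusted p = 0.129), and CDH11 with transcript lengths (0.448 in edgeR and 0.56 in DESeq2).

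The clustered protocadherins are neuronal-type adhesion proteins whose variable exons are chosen by stochastic promoter use. Of 47 tested members, 7 were higher (14.9%, against 1.07% of all genes) and none lower, with a median of 0.37. The 7 rises became 4 without WT replicate 2, mutant replicate 2 or mutant replicate 3. PCDHA6 stood at 1.99, 2.15 and 2.37 CPM in WT and at 16.9, 19.3 and 19.4 CPM in the mutant, 8.55-fold higher (log2 fold change 3.10 ± 0.16, adjusted p = 7.83e-05). PCDHA11 rose from 15.01, 11.8 and 11.3 CPM to 29.4, 37.4 and 36.5 CPM, 2.71-fold (adjusted p = 0.00327). PCDHB15 (1.77), PCDHB3 (1.19) and PCDHGB5 (1.01) were further calls, that of PCDHGB5 lost in 3 of the 6 fits with a library left out (adjusted p 0.107 to 0.2) and in edgeR with transcript lengths (0.111). Members of a cluster share sequence, and the split of reads between them is uncertain. Of the 31-base words in the annotated transcripts, 64.3% of those of PCDHA6 and 53.7% of those of PCDHA11 also occur in another gene. The same holds for 58% of those of PCDHGB5, against 24.4% for PCDHB15 and 26% for PCDHB3. PCDH7, outside the clusters, fell by 1.35 ± 0.22 on the log2 scale, a call lost without WT replicate 2 or mutant replicate 3 (0.104 and 0.12). On D16 and D30 neither PCDHA6 nor PCDHA11 was called, with log2 fold changes between 0.27 and 0.77.

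Ion channels and transporters gave scattered calls. CACNA1E, a pore subunit of a voltage-gated calcium channel on the long arm of chromosome 1, fell from 9.37, 12.3 and 14.1 CPM to 1.20, 2.88 and 3.05 CPM (log2 fold change -2.30 ± 0.30, adjusted p = 0.00818), and GABRB2, a GABA-A receptor subunit, from 3.98, 5.17 and 3.39 CPM to 0.499, 0.893 and 0.859 CPM (adjusted p = 0.00818). Of 19 calcium channel genes, 5.26% fell and 5.26% rose. The rise was CACNG7 (0.90), with a call lost in 5 of the 6 fits with a library left out. GABRB2 was the single call among 33 genes of glutamate, GABA, glycine and acetylcholine receptor channels (3.03% lower). KCNJ16 (-2.12) was the single call of 54 potassium channel genes (1.85% lower, near the 1.87% of all genes). That call was lost in 4 of the 6 fits with a library left out (adjusted p up to 0.346). No sodium channel gene of 8 was called by edgeR or DESeq2, with 2 lower at an unadjusted p under 0.05. Of 257 solute carriers, 5 fell (1.95%) and 2 rose (0.778%), close to the shares of all genes (1.87% and 1.07%). SLC30A8, a zinc transporter, showed the largest fall among them, from 5.22, 5.24 and 5.08 CPM to 0.599, 1.49 and 1.09 CPM, 4.84-fold (log2 fold change -2.27 ± 0.30, adjusted p = 0.00818). The iron exporter SLC40A1 (-1.74), the manganese exporter SLC30A10 (-1.99, on the long arm of chromosome 1) and the riboflavin transporter SLC52A3 (-1.54) were also lower. SLC30A10 was called in no fit with a library left out, and SLC52A3 lost its call in 3 of the 6 (adjusted p up to 0.207). In the list of metallothioneins and metal transport, MT1E rose from 23.5, 22.6 and 19.5 CPM to 33.1, 39.1 and 44.6 CPM (adjusted p = 0.0183) and the heme-degrading enzyme HMOX1 from 39.3, 39.0 and 42.5 CPM to 54.0, 60.1 and 64.7 CPM (adjusted p = 0.0274), with 2 of 17 higher (5 with the block) and 1 lower. MT1E and SLC40A1 lost their calls without mutant replicate 3 (0.113 and 0.12), SLC40A1 also without WT replicate 2 (0.105), and HMOX1 without WT replicate 2 or mutant replicate 3 (0.164 and 0.171). Cholesterol synthesis gave no call in 24 genes by edgeR or DESeq2, with 2 lower at an unadjusted p under 0.05. Of the 24 log2 fold changes 21 were below 0, and 4 genes were lower with the replicate block, among them CYP51A1 (adjusted p = 0.0379) and HMGCS1 (0.0749). Of 30 glycolysis and hypoxia genes, PDK1 (-0.68, adjusted p = 0.0971) was the only call, and it was lost in 5 of the 6 fits with a library left out.

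Zinc-finger genes with a ZNF name gave the most rises by count, 13 of 486 tested (2.67%, against 1.07% of all genes), with 4 lower and a median of -0.02. With the replicate block 35 were higher and 17 lower, and without mutant replicate 2 or 3 the rises numbered 8. ZNF835 stood at 0.083, 0.144 and 0.113 CPM in WT and at 2.40, 1.79 and 2.03 CPM in the mutant, 16.6-fold higher (log2 fold change 4.05 ± 0.44, adjusted p = 0.00392). ZNF662 rose from 2.65, 2.23 and 1.47 CPM to 9.39, 9.23 and 9.69 CPM, 4.37-fold (adjusted p = 0.00327). ZNF667 (2.31 ± 0.26), ZNF229 (1.41 ± 0.13) and ZNF681 (1.11 ± 0.13) followed. None of these 5 overlapped between genotypes. All kept their calls wherever they were tested but ZNF229, which missed the threshold in edgeR with transcript lengths (adjusted p = 0.248). All but ZNF662 lie on chromosome 19. Among other transcription factors, FOXQ1, a forkhead factor, fell from 25.9, 27.1 and 33.1 CPM to 4.39, 8.34 and 6.95 CPM (log2 fold change -2.12 ± 0.21, adjusted p = 0.00245). FOXA1 (-1.83, adjusted p = 0.053) and FOXA2 (-1.79, adjusted p = 0.0676) were lower and FOXO4 (0.47, adjusted p = 0.0731) higher in a family of 28 tested, each with a call lost in 4 or 5 of the 6 fits with a library left out (adjusted p up to 0.346), and HOX genes had too few counts to be tested, 0 of 39.

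POTE genes, of a primate-specific family otherwise seen in testis and some tumours, supplied the 3 rises among 4 tested cancer-testis genes. POTEI stood at 4.81, 5.88 and 4.74 CPM in WT and at 18.8, 23.5 and 22.1 CPM in the mutant, 4.14-fold higher (adjusted p = 0.00061). POTEF (1.97) and POTEE (1.15) rose with it, POTEE with a call lost without mutant replicate 3 (adjusted p = 0.102). The copies are close in sequence, and between 63.5% and 83.6% of their 31-base words occur in another gene, so that which copy rose is uncertain.

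Of the remaining genes with the largest changes, RHOBTB3 fell from 30.0, 39.9 and 45.8 CPM to 5.09, 14.2 and 10.9 CPM (adjusted p = 0.0149). CCDC152 rose from 6.13, 3.66 and 2.82 CPM to 27.3, 25.7 and 18.8 CPM, 5.59-fold (adjusted p = 0.00327), and lies on the strand opposite the selenoprotein gene SELENOP. TRDN, a protein of the muscle calcium store, rose from 6.47, 4.38 and 2.82 CPM to 14.98, 12.7 and 12.7 CPM (adjusted p = 0.0194, and 0.116 without WT replicate 2). SERPINB4 (1.19), PUS7L (1.15) and PIP5KL1 (1.18) were higher as well, the last 2 with calls lost in 3 and 4 of the 6 fits with a library left out (adjusted p up to 0.304), as was the pseudogene FAR2P3 (1.24), of whose 31-base words 96.9% occur in another gene. A gene of the Y chromosome among the 15 largest rises is not described. The libraries were strand-specific, but the strand setting used in counting is not given in the sources used here. Reads of LGR5 and TSPAN8, FZD4 and PRSS23, FLRT3 and MACROD2, LAMB1 and DLD, and CCDC152 and SELENOP, each a pair on opposite strands, may therefore not be fully separated.

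Few genes were off in a whole genotype. By the rule of 0 counts in all 3 libraries of a genotype and at least 10 in every library of the other, 1 gene was off in the mutant and 3 were off in WT, and at a minimum of 30 counts none and 1. IGSF3P2, a pseudogene copy of IGSF3 on chromosome 2, had 27, 34 and 22 counts in WT and 0 in all mutant libraries, at least 26.2-fold lower against a floor of 3 counts over the 3 libraries. RPL22P1, a processed pseudogene of the ribosomal protein gene RPL22, had 0 counts in WT and 43, 88 and 49 in the mutant, at least 65.3-fold higher. PVRIG2P had 0 counts in WT against 21, 22 and 53 (at least 32.6-fold), and a chromosome 19 transcript without a symbol, ENSG00000269242, 0 against 17, 12 and 16 (at least 16.0-fold). The zinc-finger gene ZNF572 missed the rule with a single WT count. None of the 4 is a gene without a close copy: 66.7% of the 31-base words of IGSF3P2, 77.1% of those of RPL22P1, 100% of those of PVRIG2P and 94.1% of those of ENSG00000269242 occur in another gene, and the parent genes IGSF3 and RPL22 were not called (adjusted p = 0.431 and 0.845). On D16 RPL22P1 had 49, 111 and 85 counts in WT, so that it was not off in that genotype on a later day. At D30 RPL22P1 had 64, 150 and 59 counts in WT and 44, 0 and 18 in the mutant. PVRIG2P also differed between libraries of a single genotype. Its counts at D16 were 0, 0 and 17 in WT and 20, 0 and 0 in the mutant. At D30 they were 0, 24 and 0 in WT and 45, 27 and 11 in the mutant. What sets these counts to 0 in single libraries was not tested.

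NANOGP8, a nearly intact retrocopy of NANOG, was close to off in the mutant. It had 130, 195 and 136 counts in WT and 0, 0 and 4 in the mutant (log2 fold change -6.66 ± 0.50, adjusted p = 0.000578). Its coding sequence differs from that of NANOG at 5 of 915 bases (99.5% identical). Within the coding sequence, reads tell the copies apart only where they cross such a difference. Other transcript sequence also separates them: 28.2% of the 31-base words of NANOG occur in NANOGP8, and 82.2% of those of NANOGP8 in NANOG. Both copies are shown over 41 bases around a coding difference, with the differing base in capitals. The bases are from exon 1 of NANOG at chr12:7789641-7789681 (plus strand) and from NANOGP8 at chr15:35085044-35085084 (minus strand).

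NANOG: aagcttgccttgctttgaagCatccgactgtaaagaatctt
NANOGP8: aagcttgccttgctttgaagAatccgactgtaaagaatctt

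Summed, NANOG and NANOGP8 stood at 288 ± 23.2 CPM (SD, n = 3) in WT and 352 ± 5.89 CPM in the mutant, so the CPM that NANOGP8 lost was smaller than what NANOG gained. On D16 and D30, when NANOG itself had between 15 and 65 counts in every library, NANOGP8 had at most 4 counts in any library of either genotype.

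TAF15 and CDK7, a FET-family RNA-binding protein and the kinase of the transcription factor TFIIH, were among the 15 largest falls and were the 2 calls in a list of 28. Few of their 31-base words occur in another gene of the GENCODE transcripts, 6.29% for TAF15 and 7.67% for CDK7. The study quantified reads against an Ensembl transcript set that was not searched here, so a copy present only there would be missed. TAF15 had 547, 345 and 281 counts in WT and 4, 8 and 3 in the mutant (log2 fold change -6.18 ± 0.37, adjusted p = 0.000173). CDK7 had 58, 327 and 249 counts in WT and 8, 11 and 23 in the mutant (log2 fold change -3.87 ± 0.65, adjusted p = 0.0209), called in neither limma-voom (adjusted p = 0.168) nor the fit without mutant replicate 3 (adjusted p = 0.104). For TAF15 the average effective transcript length that accompanies each count moved with it, at 1803, 1668 and 1689 bases in WT and 291, 288 and 281 bases in the mutant. On the later days the same switch between high and low separated libraries of a single genotype. At D16 TAF15 had 81, 5 and 148 counts in WT and 4, 161 and 4 in the mutant, and at D30 4, 13 and 3 in WT and 192, 3 and 78 in the mutant. In the 5 later libraries with over 70 counts the effective length ran from 1568 to 1815 bases, and in the other 7 from 290 to 328 bases. CDK7 at D16 had 4, 34 and 27 counts in WT and 255, 10 and 232 in the mutant. It was called higher in the mutant on that day (log2 fold change 2.90, adjusted p = 0.0329), opposite to D0, while TAF15 was not called there (adjusted p = 0.719). The effective length of CDK7 did not follow its count in every library: the 4 counts of WT replicate 1 at D16 came with 1181 bases and the 255 of mutant replicate 1 with 1135. What switches these counts was not tested.

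**Figure D4:**
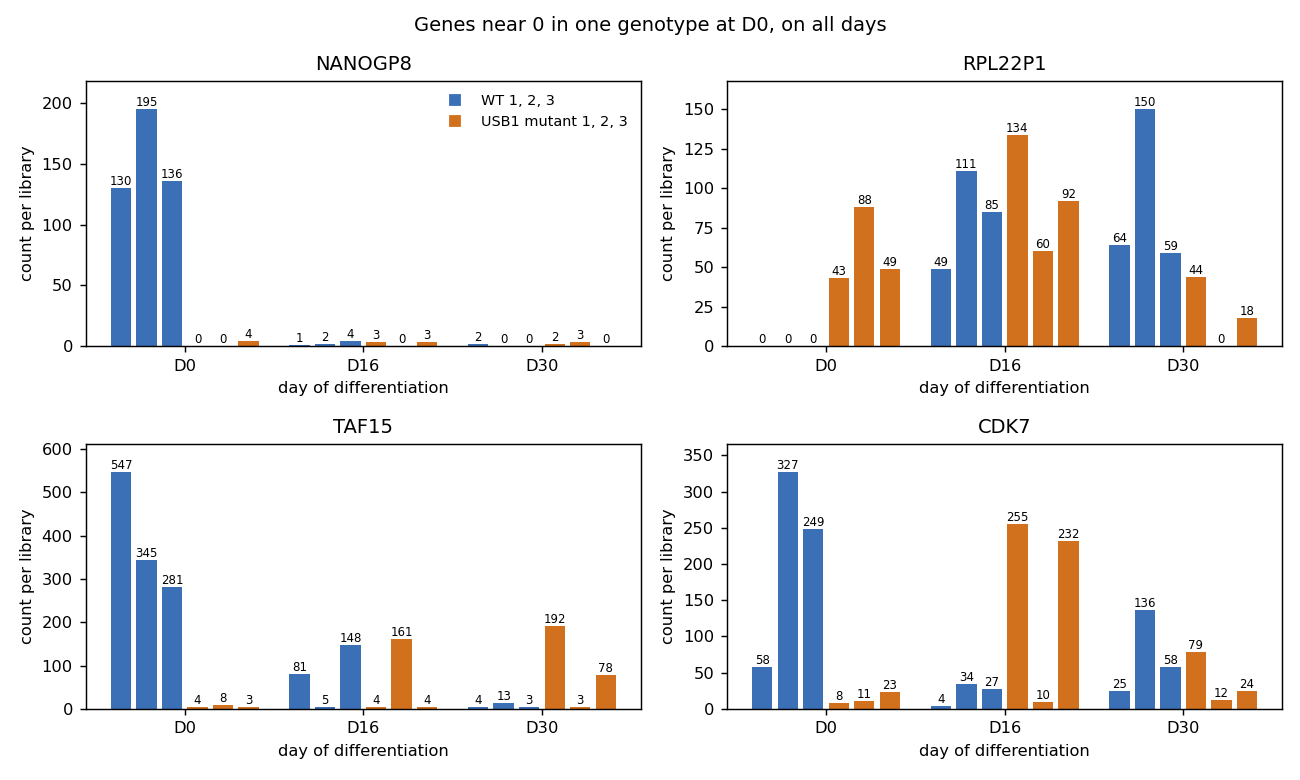
Counts per library of NANOGP8, RPL22P1, TAF15 and CDK7 on D0, D16 and D30, with the 3 WT libraries of a day in blue and the 3 USB1 mutant libraries in orange. At D0 the genotypes do not overlap for any of the 4, whereas on later days TAF15 and CDK7 are high in some libraries and low in others of the same genotype.

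Libraries of D16 and D30 are separate from those of D0 and give the genotype contrast again in differentiating cells, although from the same mutant line. Of the 275 genes lower at D0, 190 could be tested at D16 and 55 of them were lower again (28.9%, against 15.3% of all genes tested there), with 33 higher (17.4%, against 13.1%). At D30, 47 of 168 were lower (28.0%, against 9.75%) and 23 were higher (13.7%, against 10.8%). Both directions were thus above the share of all genes. Of the 157 genes higher at D0, 45 of 127 were higher at D16 (35.4%, against 13.1%) and 41 of 127 at D30 (32.3%, against 10.8%), with 12 lower at D16 (9.45%, against 15.3%) and 9 at D30 (7.09%, against 9.75%). LGR5, ERBB4, FGF17 and ACKR3 had too few counts to be tested on either later day.

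Over all 3 days, 21 genes were lower and 22 higher on each day among the 278 D0 calls tested throughout. The log2 fold changes of SLC30A8 at D0, D16 and D30 were -2.27, -2.78 and -2.67. Those of TRIM4, an E3 ubiquitin ligase named after its values were seen, were -1.90, -2.12 and -3.09. Among rises, ZNF229 went up by 1.41, 2.23 and 3.21 and HMOX1 by 0.57, 0.90 and 1.54, with POTEI, POTEF and POTEE also higher on each day. The signalling genes did not share this pattern. CXCR4 was lower at D16 (log2 fold change -1.66 ± 0.16, adjusted p = 0.000218) but not called at D30 (adjusted p = 0.73), and BMP2 and PLXNA2 were called on neither later day. KIT was lower at D0 and higher at D16 (log2 fold change 1.62 ± 0.25, adjusted p = 0.00183) and D30 (log2 fold change 4.11 ± 0.53, adjusted p = 0.00386), from 25.0 CPM in WT to 424 CPM in the mutant at D30. FST (log2 fold change 1.49 at D16 and 2.86 at D30) and SFRP1 (1.78 and 3.23) turned in the same way, called on both days. Over all D0 calls, 6 genes were lower at D0 and higher on both later days, and 4 the reverse.

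**Figure D5:**
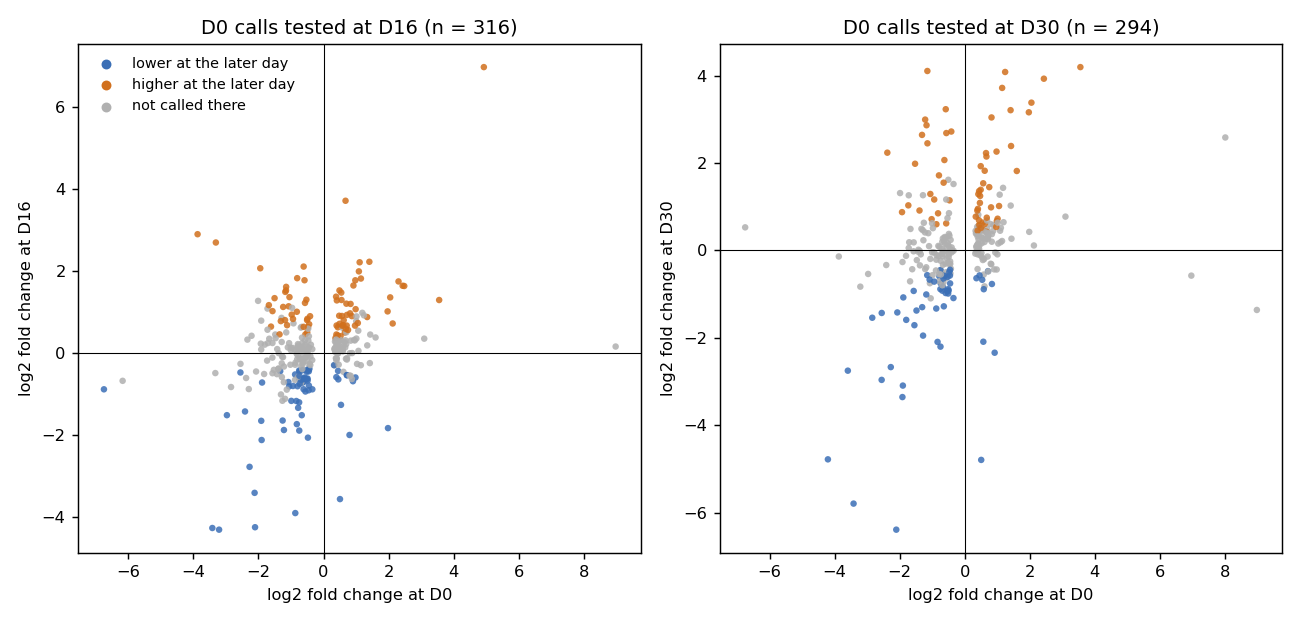
Log2 fold change of USB1 mutant over WT at D0 against that at D16 (left, n = 316) and at D30 (right, n = 294) for the genes called at D0 and tested on the later day, a gene of the Y chromosome left out, coloured by the call of the later day. At D16, 55 genes are lower and 45 higher on both days, and at D30 47 and 40 of those plotted.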

How the data were processed

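RNA of H1 hESCs was rRNA-depleted and sequenced strand-specifically (paired reads). Per the labels, the authors trimmed reads with Trimmomatic 0.36 and quantified them with Salmon 0.13.1 against GRCh38 transcripts. They deposited expected counts (estimated counts per gene), TPM and effective transcript lengths. TPM was not tested. Deposited expected counts were rounded and tested within D0 in edgeR 4.0.16 (R 4.3.3; filterByExpr, TMM scaling, quasi-likelihood test with genotype as the only term), with an adjusted p under 0.1 as a call. D16 and D30 were fitted alike. limma 3.58.1 (voom) and DESeq2 1.42.0 were alternatives, as were other scalings, count filters, transcript lengths, a fit over all 18 libraries and leaving out each library. ± after a log2 fold change is the standard error.

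The members, gene lists and named genes were chosen with earlier results of these data known. Named genes were USB1, the 15 called genes with the largest change each way (over 2-fold, mean CPM 5 or more, no overlap), genes off in a genotype, up to 5 called members of a list or family by adjusted p (up to 2 where none was called), and fixed signalling and pluripotency genes; others are said to be named after their values were seen. Same-numbered WT and mutant libraries deviated together (correlations 0.46, 0.33 and 0.48 over 10324 genes), so replicate numbers were taken as pairs in a blocked alternative. Replicates of a genotype differed beyond counting noise (chi-square per degree of freedom 3.6 to 23.5). Symbols and positions came from GENCODE for 35051 of 35168 identifiers; the other 117 held 0.201% of counts. A few genes that the rule names are not reported here. Scripts were tested on simulated data.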

Additional observations from a re-analysis of the deposited data

Results flagged for a closer look

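For genes named in the report and a few chosen after their values were seen, the genotype effect (log2 fold change of mutant over WT) of a later day was compared with that of D0 by an interaction term in a fit over all 18 libraries, a comparison added after the data were seen. Of the 108 named genes called at D0, the effect differed for 32 at D16 (30 against the D0 direction and 2 further in it) and for 44 at D30 (38 and 6). These genes were picked by their D0 call, and the D0 effect enters the difference. Part of the excess against the D0 direction is therefore expected from the choice alone, and no share over all genes was taken. Some of them, such as NANOGP8, had too few counts to be tested within the later days. The values below are of genes whose later days the report describes and a few others. At D30 the rises of ZNF229 (difference 1.73, adjusted p = 0.0314), POTEE (2.58, adjusted p = 0.000546), POTEI (1.33, adjusted p = 0.0212) and HMOX1 (0.96, adjusted p = 0.047) were larger than at D0, and that of ZNF662 smaller (-1.98, adjusted p = 0.02). The D0 rise of HMOX1 was not called in the fit over 18 libraries (adjusted p = 0.368).

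HNF4A and RHOBTB3, lower in the mutant at D0, were higher relative to that effect at D16 (4.06, adjusted p = 0.0128, and 2.20, adjusted p = 0.00198) and at D30 (3.49, adjusted p = 0.0233, and 2.81, adjusted p = 0.000133). CDK7 differed by 6.82 at D16 (adjusted p = 0.00617) and by 3.71 at D30 (adjusted p = 0.0865), and TAF15 by 10.7 at D30 (adjusted p = 0.00441). HNF4A had 0.39 CPM in WT and 1.67 CPM in the mutant at D16, and too few counts to be tested within D30. Its D0 call (adjusted p = 0.0561) was lost in 3 of the 6 fits with a library left out (up to 0.201). It was also lost in the fit over 18 libraries (0.126). TAF15 had too few counts to be tested within D30 as well. The counts of TAF15 and CDK7 switch between libraries of a single genotype on the later days, as given in the report.

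Among signalling genes lower at D0, the effect was higher at both later days for KIT (2.80, adjusted p = 0.00976, at D16 and 5.26, adjusted p = 6.58e-05, at D30), FST (2.71, adjusted p = 0.000952, and 4.12, adjusted p = 4.48e-05), SFRP1 (2.39, adjusted p = 0.000844, and 3.83, adjusted p = 0.000161) and PLXNA2 (1.99, adjusted p = 0.000547, and 1.90, adjusted p = 0.000106), and at D30 for CXCR4 (1.63, adjusted p = 0.0452). In the fit over 18 libraries that gave these differences, the D0 falls of KIT (adjusted p = 0.39) and SFRP1 (0.35) were themselves not called. The rise of PCDHA6 was smaller at D16 (-2.70, adjusted p = 0.000937) and D30 (-2.33, adjusted p = 0.000818), and that of PCDHA11 at D30 (-1.18, adjusted p = 0.044).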

How the results depend on the processing

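No called gene among those named changed direction under any alternative, but the balance of calls turned from more lower to more higher with the replicate block. The 432 calls (157 higher, 275 lower) became 185 (54 and 131) in the fit over 18 libraries, 227 (72 and 155) at an adjusted p under 0.05, 174 (59 and 115) in edgeR with transcript lengths, 1718 (889 and 829) with the replicate block and 1250 (596 and 654) without both replicates 1, and DESeq2 called 251 higher. Leaving out single libraries gave 116 to 393 calls, 38 to 137 higher and 78 to 256 lower. The 197 calls over 2-fold (48 higher, 149 lower) became 113 (27 and 86) at a minimum of 5 CPM and 115 (79 lower) with lengths, 73 were higher with no count filter and 89 without both replicates 1, and with single libraries left out the counts were 88 to 184, 24 to 54 and 64 to 143. Genes off fell from 1 to 0 in the mutant and from 3 to 1 in WT at a minimum of 30 counts. D0 calls repeated with single later libraries left out numbered 40 to 62 (lower, D16), 32 to 56 (higher, D16), 29 to 48 (lower, D30) and 25 to 39 (higher, D30). The cause was not tested. Of 108 named calls, 34 held under every alternative that tested them, apart from the 0.05 threshold, and 57 were lost without mutant replicate 3. The filter at 5 CPM tested 87 of the 108, and the fit without genes of the long arm of chromosome 1 tested 100. The replicate block lost none of the 108 named calls, added calls on CLDN15 (adjusted p = 0.0713) and SCN9A (0.0533) beside those given in the report, and changed no other call. Depth limits genes under about 1 CPM, such as GDF7, SHH and DPPA3 in the mutant.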
